A study of Homo sapiens with 4 samples.

Results

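The 10 genes described here belong to the BCL2 family, which sets whether a stressed cell keeps its mitochondria intact or dies. They were taken by gene symbol from the deposited table, which held all 10 among 58735 genes. By known role 4 are survival genes (BCL2L1, MCL1, BCL2A1 and BCL2), 2 are effectors (BAX and BAK1) and 4 encode BH3-only proteins (PMAIP1, BBC3, BCL2L11 and BIK).

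Expression was measured by RNA sequencing in 4 libraries labelled as HFL1 cells, a line derived from human fetal lung fibroblasts. The WT group had 2 libraries of cells with no change to calumenin named in the labels, and the KO group had 2 libraries of cells labelled as a knockout of it. The CALU gene makes calumenin, which binds calcium in the endoplasmic reticulum and Golgi, and the stated question is how its loss bears on senescence and fibrosis pathways in fibroblasts. The design text speaks of cells in which calumenin was knocked out or knocked down. The labels name no treatment, time point, clone or method of knockout. Nothing in them tells separate cultures from repeat preparations, so every p-value reflects spread among 4 libraries that may be technical in part.

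Survival proteins of this family hold effectors and BH3-only proteins in check on the outer mitochondrial membrane. When BH3-only proteins are made or activated they occupy the survival proteins, or engage the effectors, and BAX and BAK1 then open the membrane and release cytochrome c. Senescent fibroblasts are known to lean on survival members of the family.

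The libraries held 16173899 to 17715774 whole reads each, and a level of 3 reads, used here as a floor, covers counting error only. CALU stood at 87.7 and 81.8 FPKM in the WT libraries and at 6.59 and 5.95 FPKM in the KO libraries (FPKM scales fragments by gene length and library size), a mean 13.5-fold lower (limma adjusted p = 0.00154). The length of each member counts all its annotated exons, whichever transcript is expressed, so levels compare between genes only roughly. Mitochondrial genes took 9.34% to 9.71% of reads in 3 libraries and 12.7% in WT replicate 2. Of 15 fibroblast markers, 8 stayed below 1 FPKM in every library and COL1A2 and POSTN had 0 reads throughout, which allows up to 0.0164 and 0.0335 FPKM, so these defining fibroblast collagen and matrix genes were not detected. Summed epithelial markers stood at 995 and 1135 FPKM in WT and 1884 and 2252 FPKM in KO, led by KRT8, KRT18 and KRT7. The undetected fibroblast genes and these keratin levels are at odds with the label of a fibroblast line. The identity of the cells was not tested. Of the 12 epithelial markers, 5 stayed below 1 FPKM in every library and 7 were tested. Of those 7, 4 rose, 1 fell and 2, KRT7 among them, did not pass. CLDN4, which fell, stood at 4.57 and 5.27 FPKM in WT and 0.947 and 0.973 FPKM in KO. It reached 1 FPKM in the WT libraries alone and is named after its values were seen. The 8 markers of cycling cells summed to 207 and 214 FPKM in WT and 486 and 434 FPKM in KO. The WT sum is mostly PCNA, which did not pass (183 and 169 against 197 and 181 FPKM). The other 7 rose, and the median log2 change of the 8 was 2.71. Fibroblast markers summed to 1065 and 1440 FPKM in WT and 590 and 839 FPKM in KO, a sum that is mostly S100A4 (933 and 1352 against 449 and 723 FPKM). Of the 7 fibroblast markers tested, 1 rose (COL1A1), 1 fell (NT5E) and 5 did not pass. Among those 5, VIM stood at 76.5 and 46.8 FPKM in WT and 106 and 84.6 FPKM in KO. COL1A1 stood at 0.234 and 0.280 FPKM in WT and 3.04 and 3.16 FPKM in KO, 12.1-fold higher. It reached 1 FPKM in the KO libraries alone, so its place among the tested genes depended on the group where it was high. Of 8 endothelial markers, 7 stayed below 1 FPKM in every library, with ERG at 0 reads. The 8 summed to 22.5 and 19.4 against 13.5 and 20.8 FPKM, nearly all of it EGFL7 (21.7 and 18.4 against 13.2 and 20.5 FPKM). The part of these shifts in the results that follow was not tested. In bulk RNA, fewer cells that express a gene and less of its RNA per cell cannot be told apart.

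Of the 10 genes, 9 reached 1 FPKM in at least 2 libraries and were tested, and BCL2 did not. In KO, 5 of the 9 were lower (BCL2L1, BCL2A1, BAX, PMAIP1 and BBC3), 1 was higher (BCL2L11) and 3 did not pass (MCL1, BAK1 and BIK), by limma across all genes with a Benjamini-Hochberg adjusted p under 0.05. Among all 14100 genes tested, 11.1% were called lower, 12.1% higher and 23.3% in either direction. BCL2A1 reached 1 FPKM in the WT libraries alone, so its place among the tested genes depended on the group where it was high. The median log2 change of the 9 was -0.79, against 0.03 over all genes tested. The groups did not overlap for 8 of the 9, MCL1 being the exception, beside 65.7% of all genes tested. The call was lost without WT replicate 1 or without WT replicate 2 for each of BCL2L1, BAX, PMAIP1 and BCL2L11, and counts of calls without each library ran from 2 to 6 lower and from 0 to 1 higher. That 0 arose without WT replicate 1, WT replicate 2 or KO replicate 1, where BCL2L11 passed an unadjusted p under 0.05.

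**Figure D1:**
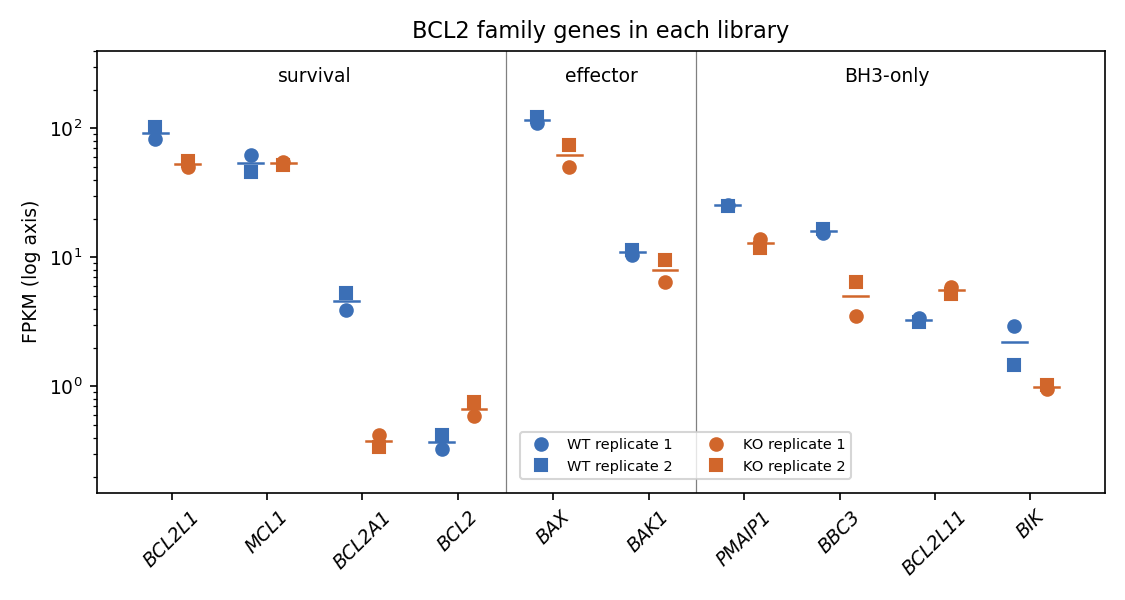
FPKM on a log axis for the 10 genes in each library, grouped by role, with WT in blue, KO in orange, circles for replicate 1, squares for replicate 2 and a line at each group mean. BCL2A1 fell from 3.92 and 5.32 FPKM to 0.419 and 0.336 FPKM, and BCL2L11 rose from 3.37 and 3.16 FPKM to 5.87 and 5.22 FPKM.

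Stretches upstream of transcription starts are shown for the 6 members that passed the test, since these members moved together or in opposite directions. RefSeq starts were listed for 8 of the 10 genes (not MCL1 or BIK), on build GRCh38.p14, and the 250 bases before each start were searched on both strands. The motifs reported are the NF-kB site, TGATGNAA (the CHOP-ATF4 composite element), TGACG (the core of the cyclic AMP response element), CCAAT (the box of that name), TATAAA (the TATA box), TGTTTAC (a FOXO site) and GGGCGG (the GC box). Capitals mark every match to these in the stretch shown, each line reads 5′ to 3′ along the gene's strand, and bases that GENCODE places in an exon of the gene are left out except in the short BCL2A1 piece.

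BCL2L1, which fell (chr20:31723990-31724213, minus strand): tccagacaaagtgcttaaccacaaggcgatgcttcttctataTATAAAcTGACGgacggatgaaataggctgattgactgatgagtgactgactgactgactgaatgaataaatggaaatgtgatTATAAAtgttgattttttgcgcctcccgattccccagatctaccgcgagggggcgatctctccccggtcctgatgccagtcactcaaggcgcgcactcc

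BAX, which fell (chr19:48954625-48954814, plus strand): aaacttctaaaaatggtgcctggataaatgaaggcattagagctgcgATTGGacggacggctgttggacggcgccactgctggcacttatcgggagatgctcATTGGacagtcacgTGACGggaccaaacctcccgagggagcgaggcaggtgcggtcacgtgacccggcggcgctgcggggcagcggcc

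PMAIP1, which fell (chr18:59899746-59899947, plus strand): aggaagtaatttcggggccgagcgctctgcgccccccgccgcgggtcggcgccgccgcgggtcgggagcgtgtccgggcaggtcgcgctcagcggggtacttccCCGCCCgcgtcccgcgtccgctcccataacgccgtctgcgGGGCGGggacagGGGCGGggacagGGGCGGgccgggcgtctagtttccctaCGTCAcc

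BBC3, which fell (chr19:47232767-47232917, minus strand, no match in this stretch): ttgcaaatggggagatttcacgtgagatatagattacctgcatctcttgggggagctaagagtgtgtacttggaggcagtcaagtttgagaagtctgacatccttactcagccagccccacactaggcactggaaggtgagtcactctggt

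BCL2L11, which rose (chr2:111120664-111120913, plus strand): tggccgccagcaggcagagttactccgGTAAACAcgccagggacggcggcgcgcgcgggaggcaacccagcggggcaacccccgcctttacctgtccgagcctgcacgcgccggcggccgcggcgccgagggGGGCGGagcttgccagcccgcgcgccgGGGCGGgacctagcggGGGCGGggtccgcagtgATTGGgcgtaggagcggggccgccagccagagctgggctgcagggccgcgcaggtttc

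BCL2A1, which fell the most (chr15:79971243-79971272, minus strand, 30 bases that GENCODE counts as transcribed): ggatatTATAAAgTGATGCAAacagaaatt

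The BCL2L11 stretch lies within the gene as GENCODE draws it, in no exon. The BCL2A1 window held a TATAAA match followed after 1 base by TGATGCAA, a match to TGATGNAA, which 3.14% of all 35116 windows held. BCL2L11 held the single FOXO match among the members, against 2.98% of all windows, together with 3 GC boxes. The core TGACG occurred in BAX, BCL2L1, PMAIP1 and BCL2, 4 of 8 genes, against 21.2% of windows, and TATAAA in BCL2L1 and BCL2A1 against 10.7%. The GC box occurred in BAX, BAK1, PMAIP1 and BCL2L11 against 42.6%, and CCAAT in BAX, BAK1, BBC3 and BCL2L11 against 32.0%. The NF-kB site matched in no member window, against 5.21%. GC content of the whole window was 76.8% for BCL2L11, 72.8% for PMAIP1, 62.8% for BAX, 49.2% for BBC3 and 38.8% for BCL2A1, around a median of 58.0% over all windows. A match here is a description of letters and not a site of binding.

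Among the survival genes, BCL2L1 had the highest FPKM in WT. BCL2L1 (ENSG00000171552, chr20:31664452-31723989, minus strand) encodes BCL-XL, which binds and restrains both effectors and most BH3-only proteins. It stood at 82.7 and 102.9 FPKM in WT and at 50.1 and 56.1 FPKM in KO. Both KO libraries lay below both WT libraries. Group means ± SD (n = 2) were 92.8 ± 14.3 FPKM for WT against 53.1 ± 4.24 FPKM for KO, 1.75-fold lower. On the log2 scale the difference was -0.79, with SE 0.17 and a limma adjusted p of 0.0287. The call was lost without WT replicate 1 (limma adjusted p = 0.0883), WT replicate 2 (0.189) or KO replicate 1 (0.0788), and when genes of any level were tested (0.0927). ABALON, an antisense gene that overlaps BCL2L1, stood at 3.37 and 3.88 FPKM in WT and 1.59 and 2.12 FPKM in KO. AL117381.1, also antisense, stood at 1.17 and 1.305 FPKM in WT and 0.916 and 0.326 FPKM in KO. Strandedness of the libraries is not given in the sources used here, so reads of the overlapping stretches could belong to either gene. The annotation lists 9 protein-coding transcripts of BCL2L1, and a gene value does not separate the long survival form from the short form known to promote death.

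MCL1 did not pass the test. MCL1 (ENSG00000143384, chr1:150574551-150579738, minus strand) encodes a short-lived survival protein that restrains BAK1 and is the preferred partner of NOXA. It stood at 62.1 and 45.9 FPKM in WT and at 55.04 and 52.4 FPKM in KO, with the KO libraries between the WT libraries. The log2 difference was 0.01 (SE 0.19, 95% interval -0.46 to 0.47, limma adjusted p = 0.982), and its sign turned under 4 alternatives. The interval leaves room for shifts of up to about 0.47 in either direction. In WT the BCL2L1 level was 1.33 and 2.24 times that of MCL1, and in KO 0.910 and 1.07 times.

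BCL2A1 showed the largest fold among the 10. BCL2A1 (ENSG00000140379, chr15:79960889-79971446, minus strand) encodes BFL1, a survival protein known as an NF-kB target and abundant in blood cells. Its level was 3.92 and 5.32 FPKM in WT, from 78 and 95 reads, and 0.419 and 0.336 FPKM in KO, from 8 and 6 reads. The groups did not overlap and every library lay above the floor of 3 reads, at most 0.168 FPKM. Group means ± SD (n = 2) were 4.62 ± 0.989 FPKM for WT against 0.378 ± 0.0588 FPKM for KO, 12.2-fold lower. On the log2 scale the difference was -2.02, with SE 0.18 and a limma adjusted p of 0.00409. BCL2A1 was the sole member called under all 13 alternatives, with limma adjusted p from 0.000577 to 0.0497. Its log2 size moved with the scale, to -3.29 at a pseudocount of 0.1 and -3.50 by voom. Of 10 leukocyte markers, 9 stayed below 1 FPKM in every library, and CD3E, MS4A1 and TYROBP had 0 reads. The remaining leukocyte marker, CD14, stood at 19.4 and 16.9 FPKM in WT and 5.84 and 6.41 FPKM in KO, and the 10 summed to 20.3 and 18.4 against 6.37 and 6.74 FPKM.

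BCL2 itself had the lowest FPKM of the members in WT, over an annotated exon length of 11765 bases, and lay below the level for testing. BCL2 (ENSG00000171791, chr18:63123346-63320128, minus strand), the founding survival gene of the family, stood at 0.326 and 0.42003 FPKM in WT and at 0.587 and 0.757 FPKM in KO, from 70, 81, 121 and 146 reads. Both KO libraries lay above both WT libraries, and the ratio of means was 1.80. When genes of any level were tested, its log2 change was 0.28 (SE 0.13, limma adjusted p = 0.328), which did not pass.

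**Figure D2:**
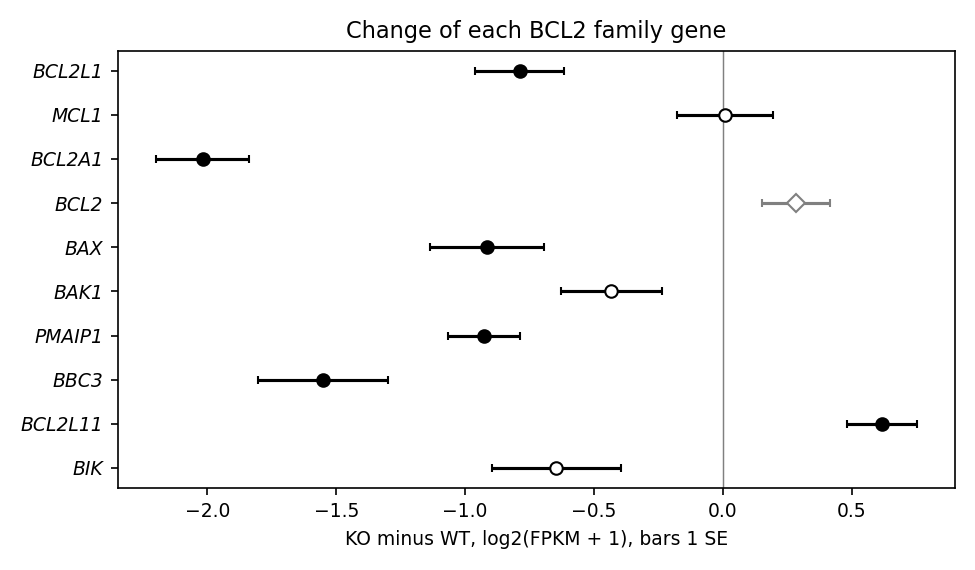
Log2 change of each gene, KO minus WT on the log2(FPKM + 1) scale, with bars of 1 SE; filled circles passed at an adjusted p under 0.05, open circles did not, and the grey diamond for BCL2 comes from the fit without a filter. BCL2A1 lies lowest at -2.02 and BCL2L11 highest at 0.62.

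Of the effectors, BAX fell and BAK1 did not pass. BAX (ENSG00000087088, chr19:48954815-48961798, plus strand) encodes the pore-forming protein that moves from cytosol to mitochondria. It stood at 110.0 and 121 FPKM in WT and at 49.97 and 74.0 FPKM in KO, with no overlap and a wide gap between the KO libraries. Group means ± SD (n = 2) were 116 ± 8.12 FPKM for WT against 62.0 ± 17.0 FPKM for KO, 1.87-fold lower. The log2 difference was -0.92, with SE 0.22 and a limma adjusted p of 0.0374. The call was lost without WT replicate 1 (limma adjusted p = 0.125), WT replicate 2 (0.159) or KO replicate 1 (0.0738), and with no filter (0.127).

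BAK1 (ENSG00000030110, chr6:33572547-33580293, minus strand) encodes the effector that sits in the mitochondrial membrane. It stood at 10.5 and 11.4 FPKM in WT and at 6.48 and 9.46 FPKM in KO. KO replicate 2 lay just under the lower WT library, and KO replicate 1 was well below. The log2 change was -0.43 (SE 0.19, 95% interval -0.92 to 0.05, limma adjusted p = 0.165). Without KO replicate 2 it passed, with a log2 change of -0.67 (limma adjusted p = 0.0448). A processed pseudogene copy, BAK1P1, stood at 0.288 to 1.12 FPKM, and reads of the copies may have been split, which makes BAK1 uncertain to that extent. The FPKM of BAX was 10.5 and 10.6 times that of BAK1 in WT and 7.71 and 7.82 times in KO.

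The BH3-only genes moved in both directions. PMAIP1 (ENSG00000141682, chr18:59899948-59904306, plus strand) encodes NOXA, a sensitizer that binds MCL1 and marks it for degradation. It stood at 25.4 and 25.2 FPKM in WT and at 13.8 and 11.9 FPKM in KO, with both KO libraries far below the WT pair. Group means ± SD (n = 2) were 25.3 ± 0.120 FPKM for WT against 12.9 ± 1.37 FPKM for KO, 1.97-fold lower. On the log2 scale the difference was -0.93, with SE 0.14 and a limma adjusted p of 0.0115. The call was lost without WT replicate 1 (limma adjusted p = 0.0815) or WT replicate 2 (0.0725) and with no filter (0.0528), although the log2 change stayed at -0.92 or lower in each. The ratio of MCL1 to PMAIP1 was 2.44 and 1.82 in WT and 3.98 and 4.40 in KO.

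BBC3 (ENSG00000105327, chr19:47220822-47232766, minus strand) encodes PUMA, a BH3-only protein that binds all survival members. It stood at 15.5 and 16.7 FPKM in WT and at 3.54 and 6.49 FPKM in KO. All KO values lay below the WT values, and KO replicate 1 was the lowest. Group means ± SD (n = 2) were 16.1 ± 0.813 FPKM for WT against 5.01 ± 2.09 FPKM for KO, 3.21-fold lower. The log2 difference was -1.55, with SE 0.25 and a limma adjusted p of 0.0135. BBC3 was called under 12 of 13 alternatives and lost its call with no filter (limma adjusted p = 0.0784).

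BCL2L11 was the member that rose. BCL2L11 (ENSG00000153094, chr2:111119378-111168447, plus strand) encodes BIM, an activator of BAX and BAK1 that responds to growth factor withdrawal through FOXO factors. It stood at 3.37 and 3.16 FPKM in WT and at 5.87 and 5.22 FPKM in KO, with close replicates and no overlap. Group means ± SD (n = 2) were 3.27 ± 0.1502 FPKM for WT against 5.55 ± 0.459 FPKM for KO, 1.70-fold higher. On the log2 scale the difference was 0.62, with SE 0.14 and a limma adjusted p of 0.0288. The call was lost without WT replicate 1 (limma adjusted p = 0.161), WT replicate 2 (0.187) or KO replicate 1 (0.0811), and with no filter (0.0900). MIR4435-2HG, an overlapping noncoding gene on the other strand, stood at 0.792 and 0.854 FPKM in WT and 1.12 and 1.22 FPKM in KO. The library kit's strandedness is not given in the sources used here, so reads of the overlapping stretch could belong to either gene. The FPKM of BBC3 was 4.60 and 5.27 times that of BCL2L11 in WT and 0.602 and 1.24 times in KO.

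BIK (ENSG00000100290, chr22:43110748-43129712, plus strand) encodes a BH3-only protein of the endoplasmic reticulum. It stood at 2.93 and 1.47 FPKM in WT, from 51 and 23 reads, and at 0.959 and 1.02 FPKM in KO, from 16 reads each. The WT libraries differed more from each other than the lower WT library did from KO. The log2 change was -0.65 (SE 0.25, limma adjusted p = 0.119), which did not pass, and the ratio of WT to KO means moved from 2.22 to 1.49 without WT replicate 1.

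Ordered by FPKM in WT, BAX came first, then BCL2L1, MCL1, PMAIP1, BBC3, BAK1, BCL2A1, BCL2L11, BIK and BCL2, and no neighbours overlapped in their library ranges. The order rests on annotated lengths, since BCL2 had more reads than BIK in WT (70 and 81 against 51 and 23). In KO, BAX, MCL1 and BCL2L1 overlapped as neighbours at the top, at means of 62.0, 53.7 and 53.1 FPKM. BCL2L11, at 5.55 FPKM, passed BBC3, at 5.01 FPKM, in that order, and their ranges overlapped. BCL2A1 was the lowest member in KO, below BCL2.

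The summed level of all 10 genes was 317 and 334 FPKM in WT and 187 and 218 FPKM in KO. Survival genes summed to 149 and 155 FPKM in WT and 106 and 110 FPKM in KO, effectors to 120.5 and 133 against 56.4 and 83.5 FPKM, and BH3-only genes to 47.2 and 46.6 against 24.2 and 24.6 FPKM. Each role sum was thus lower in both KO libraries than in both WT libraries. BAX made up 88.5% to 91.4% of the effector sum. The survival sum was mostly BCL2L1, which fell, and MCL1, which did not pass. Survival genes made up 47.1% and 46.3% of the sum in WT and 56.8% and 50.3% in KO. Their ratio to BH3-only genes was 3.16 and 3.32 in WT and 4.38 and 4.45 in KO, and their ratio to effectors was 1.24 and 1.16 in WT and 1.88 and 1.31 in KO. These ratios describe RNA, rest on annotated gene lengths, carry no test, and do not measure the proteins. Within the BH3-only group, BBC3 went from 32.9% and 35.8% in WT to 14.6% and 26.3% in KO, and BCL2L11 from 7.14% and 6.79% to 24.3% and 21.2%.

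**Figure D3:**
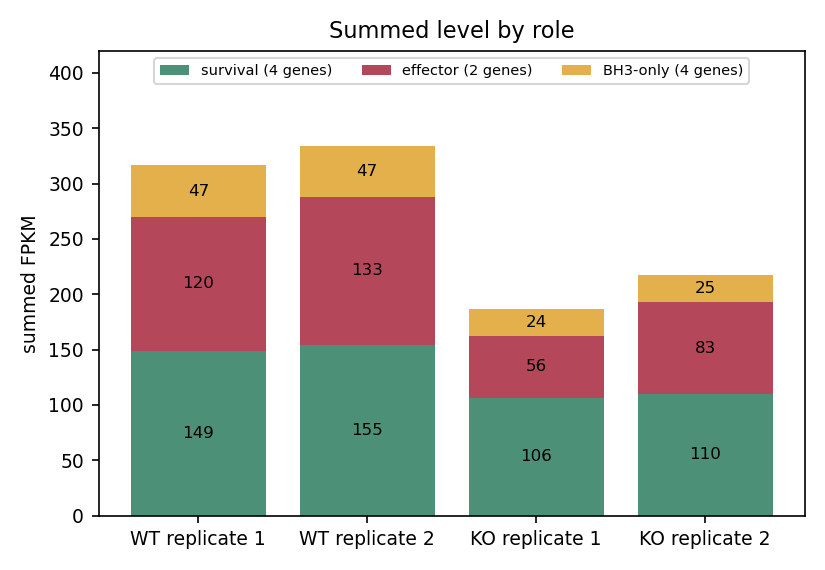
Summed FPKM of the survival, effector and BH3-only genes stacked for each library, with the rounded sum of each group printed in its segment. Both WT bars, at 317 and 334 FPKM, are taller than both KO bars, at 187 and 218 FPKM.

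Other family genes were taken from a list of 13. Of these, 9 were tested, 1 rose, 1 fell and 7 did not pass, with a median log2 change of -0.23. BCL2L12, a divergent member that acts in the nucleus and cytosol, stood at 7.64 and 6.94 FPKM in WT and at 15.0 and 20.8 FPKM in KO (log2 1.17, SE 0.19, limma adjusted p = 0.0129). BCL2L13, a mitochondrial member linked to mitophagy, stood at 12.7 and 12.2 FPKM in WT and at 8.15 and 7.51 FPKM in KO (log2 -0.61, SE 0.13, limma adjusted p = 0.0267). Without WT replicate 1 or WT replicate 2 both calls were lost (limma adjusted p = 0.0512 and 0.0617 for BCL2L12, and 0.205 and 0.163 for BCL2L13), as was that of BCL2L13 without KO replicate 2 (0.0595).

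Genes that act once the mitochondrial membrane opens form the next list. Of 15 listed, 14 were tested, 5 rose, 1 fell and 8 did not pass, and the median log2 change was 0.32. CASP6, an executioner caspase, stood at 4.68 and 5.06 FPKM in WT and at 8.37 and 9.36 FPKM in KO (log2 0.75, SE 0.13, limma adjusted p = 0.0170). CYCS, cytochrome c, stood at 21.9 and 24.1 FPKM in WT and at 37.4 and 40.03 FPKM in KO (log2 0.73, SE 0.14, limma adjusted p = 0.0198). AIFM1, a mitochondrial flavoprotein released in death, rose 1.57-fold (log2 0.62, limma adjusted p = 0.0341). HTRA2, a mitochondrial serine protease that relieves caspase inhibition, was the gene that fell, from 9.07 and 9.60 FPKM to 4.87 and 6.32 FPKM (log2 -0.66, limma adjusted p = 0.0371). APAF1, the scaffold of the apoptosome, and VDAC3, a membrane channel, also rose, at log2 0.58 and 0.54, and are named after their values were seen. VDAC3 lost its call after quantile normalization (limma adjusted p = 0.0693) and when scaled to total reads (0.0585). Without WT replicate 1 or without WT replicate 2, none of the 14 passed by limma, with values for the named genes such as 0.140 and 0.0961 for CASP6 and 0.173 and 0.107 for CYCS. With KO replicate 1 left out 3 rose and with KO replicate 2 left out 2 rose.

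**Figure D4:**
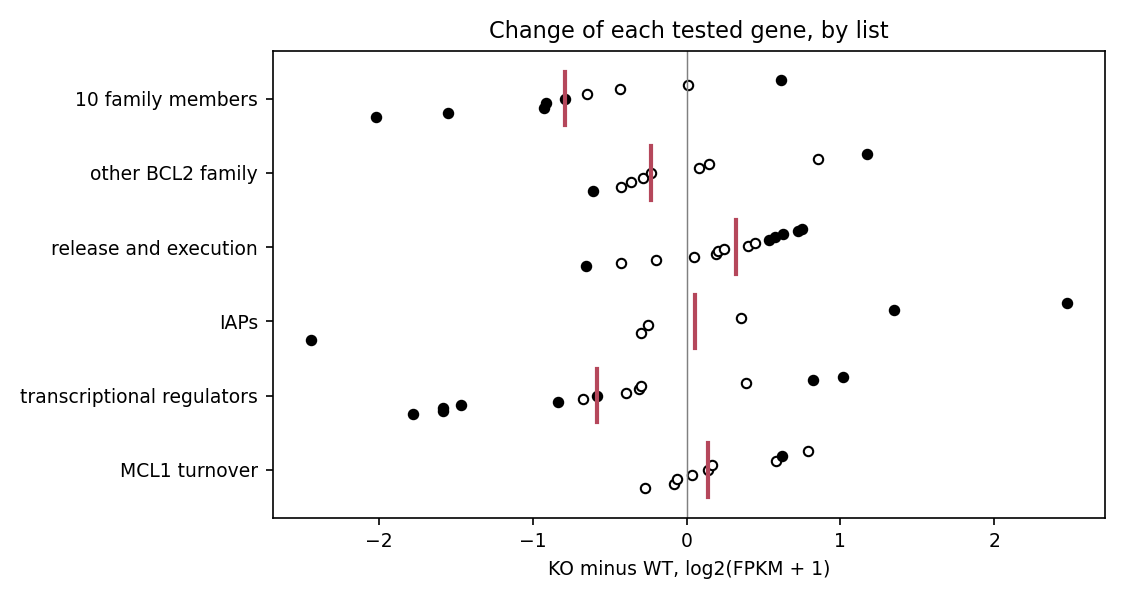
Log2 change of each tested gene, KO minus WT on the log2(FPKM + 1) scale, by list; filled points passed at an adjusted p under 0.05, open points did not, and the red line is the list's median. The 9 tested members have a median of -0.79 and the release and execution genes one of 0.32.

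Inhibitor of apoptosis genes, which act on caspases downstream of the family, split. All 6 listed were tested, 2 rose, 1 fell and 3 did not pass, with a median log2 change of 0.05. BIRC3, an inhibitor induced by NF-kB, stood at 30.9 and 23.7 FPKM in WT and at 4.67 and 3.68 FPKM in KO (log2 -2.45, SE 0.19, limma adjusted p = 0.00342). BIRC5, survivin, a mitotic protein as well, stood at 2.18 and 5.501 FPKM in WT and at 22.0 and 26.7 FPKM in KO (log2 2.47, SE 0.34, limma adjusted p = 0.00943), and its fold moved from 6.34 to 11.2 without WT replicate 2. Of the 8 cycling markers 7 also rose, and their part in the BIRC5 difference was not tested. BIRC7 stood at 2.84 and 4.34 FPKM in WT and at 8.74 and 12.7 FPKM in KO (limma adjusted p = 0.0165, and 0.0708 without WT replicate 1).

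Genes that regulate transcription of family members included more that fell than rose. Of 14 listed, 13 were tested, 6 fell, 2 rose and 5 did not pass, with a median log2 change of -0.58. MDM2, a ubiquitin ligase, stood at 21.4 and 19.8 FPKM in WT and at 6.35 and 4.41 FPKM in KO (log2 -1.78, SE 0.18, limma adjusted p = 0.0050). DDIT3, the stress factor CHOP, stood at 11.7 and 7.52 FPKM in WT and at 2.10 and 2.90 FPKM in KO (log2 -1.58, SE 0.24, limma adjusted p = 0.0113). NFKBIA, the NF-kB inhibitor that NF-kB induces, fell 3.03-fold (limma adjusted p = 0.00424), and TRIB3, a target of CHOP and ATF4, was 2.87-fold lower (limma adjusted p = 0.00801). ATF4 and RELA were the others that fell and E2F1 and TP63 the genes that rose, all named after their values were seen. TP63 stood at 0.669 and 0.720 FPKM in WT and at 2.08 and 1.91 FPKM in KO. It reached 1 FPKM in the KO libraries alone, so its place among the tested genes depended on the group where it was high. The count of genes that rose ran from 0 to 1 without each library in turn, and each of ATF4, RELA, TP63 and E2F1 lost its call without at least 2 of the libraries (limma adjusted p = 0.0511 to 0.288).

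Genes that set the turnover of MCL1 protein were examined because MCL1 is short-lived. Of 10 listed, 9 were tested, 1 rose and 0 fell (limma, with 0 lower also at an unadjusted p under 0.05 and by voom), and the median log2 change was 0.14. In the higher direction, 3 passed an unadjusted p under 0.05 by limma, and 3 were called by voom. The most abundant were HUWE1, a ubiquitin ligase of MCL1, at 36.2 and 31.4 FPKM in WT and 38.7 and 31.0 FPKM in KO, and BAG3, a co-chaperone, at 31.7 and 30.9 against 35.2 and 35.0 FPKM. USP9X, a deubiquitinase that stabilizes MCL1, stood at 18.1 and 13.6 FPKM in WT and at 34.1 and 22.6 FPKM in KO (log2 0.79, SE 0.24, limma adjusted p = 0.0706). It passed without KO replicate 2 (limma adjusted p = 0.0356), by voom (0.0205) and with the replicate number as a block (0.00353). RNF7, a subunit of ubiquitin ligases, stood at 15.1 and 15.8 FPKM in WT and at 13.6 and 15.9 FPKM in KO. USP13, another deubiquitinase, was the gene that rose (log2 0.62, limma adjusted p = 0.0452), is named after its value was seen. It lost its call without WT replicate 1, WT replicate 2 or KO replicate 1 (limma adjusted p = 0.132 to 0.207), with no filter (0.140), with a filter at 0.5 FPKM (0.0536) and when scaled to total reads (0.0521).

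**Figure D5:**
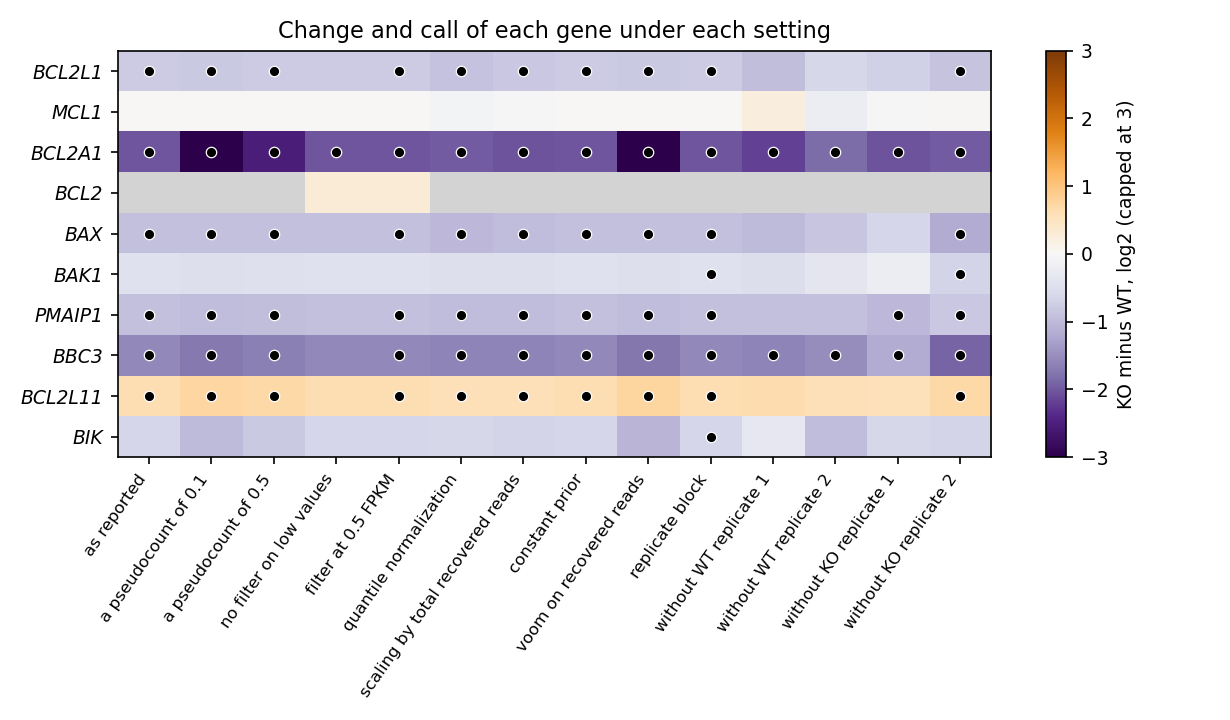
Colour gives the log2 change of each of the 10 genes, KO minus WT and capped at 3, as reported and under 13 alternatives; a dot marks an adjusted p under 0.05 and light grey a fit in which BCL2 was not tested. BCL2A1 carries a dot in every column, BBC3 in all but the fit with no filter, and MCL1 in none.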

How the data were processed

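RNA was sequenced from 4 HFL1 libraries on a NovaSeq instrument, and paired-end reads were aligned with HISAT2 2.0.5, per the labels' protocols. The builds named are hg38 and mm10, per the submitters' processing notes. The authors deposited FPKM values, 1 per gene and library. How fragments were counted, and how libraries were scaled, is not given in the sources used here. All 58735 identifiers had the same start and end as in GENCODE 29, so coordinates are on GRCh38. FPKM times gene length came out in whole steps of 1 read per library for 100% of values (tolerance 0.01), which gave the read totals. The library size behind the FPKM was 1.03 and 1.01 times that total in WT and 0.990 and 0.986 times in KO. Scaling by the totals instead moved the median log2 change of all tested genes from 0.03 to -0.01. A list symbol that a spreadsheet had turned into a date (MARCH5) was restored by gene ID.

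Values were tested as log2(FPKM + 1), a scale that understates changes of low genes, in R 4.3.3 with limma 3.58.1, using an intensity-dependent prior (residual df 2) on genes with at least 1 FPKM in at least 2 libraries, without a replicate block. With 2 libraries a side the smallest exact permutation p is 0.333, so that test was not run. Folds are ratios of mean FPKM. When the fit was tried on simulated data, the share of false calls was above the nominal 0.05, so calls with an adjusted p just under that threshold are less secure than the p states. Alternatives changed the pseudocount, filter, scaling, prior, test (voom on recovered reads), block and libraries.

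The 10 members and the gene lists were chosen with earlier results of these data known. The genes named were CALU, the members, and up to 4 tested genes of each other list (those called, by size of change, or the most abundant where fewer than 2 were called), and up to 3 markers of each marker list by level. The lists cover other family genes, release and execution genes, inhibitors of apoptosis, transcriptional regulators, MCL1 turnover, and markers of fibroblasts, epithelium, leukocytes, endothelium and cycling cells. Overlapping genes and pseudogene copies may share reads with a member. Of the list genes and motifs examined, 1 gene and 1 motif are not reported here.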

Additional observations from a re-analysis of the deposited data

How the results depend on the processing

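Testing genes of any level, 183 were called higher and 193 lower in KO, with 0 members higher and 1 lower, BCL2A1. That fit tested 32306 genes, against 14100. It had 1 member higher and 5 lower at an unadjusted p under 0.05 by limma. By voom, run only on the 14100 genes, 1 member was called higher and 5 lower. Without each replicate in turn, genes called higher ran from 505 to 1321 and genes called lower from 537 to 1260. Members called higher then ran from 0 to 1 and members called lower from 2 to 6. With the replicate number as a block, 2968 genes were higher and 2577 lower, and 7 members were lower, BAK1 (adjusted p = 0.0436) and BIK (0.0491) being added. USP9X also passed (0.00353). The difference between replicates 1 and 2 correlated between WT and KO at 0.41 across genes, and no label ties same-numbered libraries to each other. Whether the numbers mark a shared source could not be decided from 2 pairs. The log2 change of MCL1 was -0.075 after quantile normalization, -0.040 when scaled to total reads, and -0.21 to 0.22 without each replicate. HUWE1 had -0.044 and -0.011 under those scalings and -0.12 to 0.19 without each replicate, and RNF7 -0.17 to 0.044 without each replicate. The cause of these changes was not tested. All other alternatives kept 5 members lower and 1 higher. BCL2A1 in KO, with 6 to 8 reads, and BIK, with 16, are limited most by depth.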

Other observations

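The family genes BCL2L10, BCL2L14, HRK and BCL2L15, outside the 10, stayed below 1 FPKM in every library. BCL2L10, BCL2L14 and HRK had 25, 20 and 30 reads in total. BCL2L15 stood at 0.242 and 0.665 FPKM in WT and at 0.918 and 0.855 FPKM in KO. DIABLO is not a family gene and encodes the mitochondrial antagonist of inhibitor of apoptosis proteins. It was annotated as a pair of overlapping genes of the same name on the same strand. The larger in reads stood at 0.565 to 0.991 FPKM and the other at 0 to 0.130 FPKM. How reads shared by the pair were counted is not given in the sources used here, so these values do not settle the level of DIABLO. BAD, a BH3-only protein regulated by phosphorylation, stood at 4.65 and 9.07 FPKM in WT and at 9.09 and 17.5 FPKM in KO, so that replicate 2 was higher in each group and the groups all but touched (limma adjusted p = 0.163). These genes were chosen after their values were seen.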
